A study of Mus musculus with 14 samples.

Results

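Natural killer (NK) cells sorted from the spleens of mice with a mammary tumour were compared with NK cells sorted from the spleens of healthy mice. The comparison used 7 of the 14 samples of the series, and it covered all 10210 genes listed in the count table of the 11 NK libraries. Both groups were BALB/c mice with no genetic change named in the labels, which give an age of 8 weeks, for tumour-bearing mice that at injection. The 4 tumour-bearing replicates came from females that had received 100000 cells of 4T1-GFP into the lower left mammary fat pad. 4T1 is a mammary carcinoma line of BALB/c origin that grows and spreads in mice of this strain, and the injected line carries green fluorescent protein. The 3 healthy replicates came from mice labelled healthy. Spleens of both groups were crushed, red cells were lysed on ice, and NK cells were enriched on magnetic beads. The final sort kept CD45+ NKp46+ cells that lacked CD3, CD14, CD31, EPCAM and GFP. The labels do not give the time from injection to collection, or whether a replicate is 1 spleen or a pool, so p-values measure the spread between these samples. The comparison asks how NK cells of the spleen differ when a tumour grows at another site.

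NK cells are innate lymphocytes that kill infected and transformed cells with perforin and granzymes and that secrete interferon gamma and chemokines. Receptors that bind ligands on other cells, some activating and some inhibitory, set their response, and cytokines such as interleukin 15 keep them alive and make them divide. In the spleen they mature from CD27-positive to CD11b-positive cells and circulate between blood and the red pulp.

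Total counts were 559688 in healthy replicate 1 and between 1210219 and 1966963 in the other 6 libraries. Levels are given as CPM, counts scaled to a common total with TMM-adjusted library sizes. They serve to compare libraries gene by gene, and sums over gene lists and ranks by level are descriptive only. A count of 0 allows up to 3 counts, which is 4.81 CPM in healthy replicate 1 and 1.61 to 2.57 CPM in the others, for counting error only. Libraries also differed in a way that no label gives. Tumour-bearing replicates 1 and 2 and healthy replicate 1 (side A) stood apart from tumour-bearing replicates 3 and 4 and healthy replicates 2 and 3 (side B) on the first principal component. Between the sides 1944 genes were called in a model that also held the group. Across genes, a library's deviation from the mean of all 7 was lower for GC-rich transcript ends on side A (Spearman rho between −0.423 and −0.39) and higher for them on side B (0.165 to 0.474). What the split is was not tested. The second component parted the groups, with the tumour-bearing libraries between 6.15 and 22.8 and the healthy ones between −18.9 and −17.4. The sides cross both groups, so the side was kept as a block, and side A holds 1 healthy library only.

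**Figure D1:**
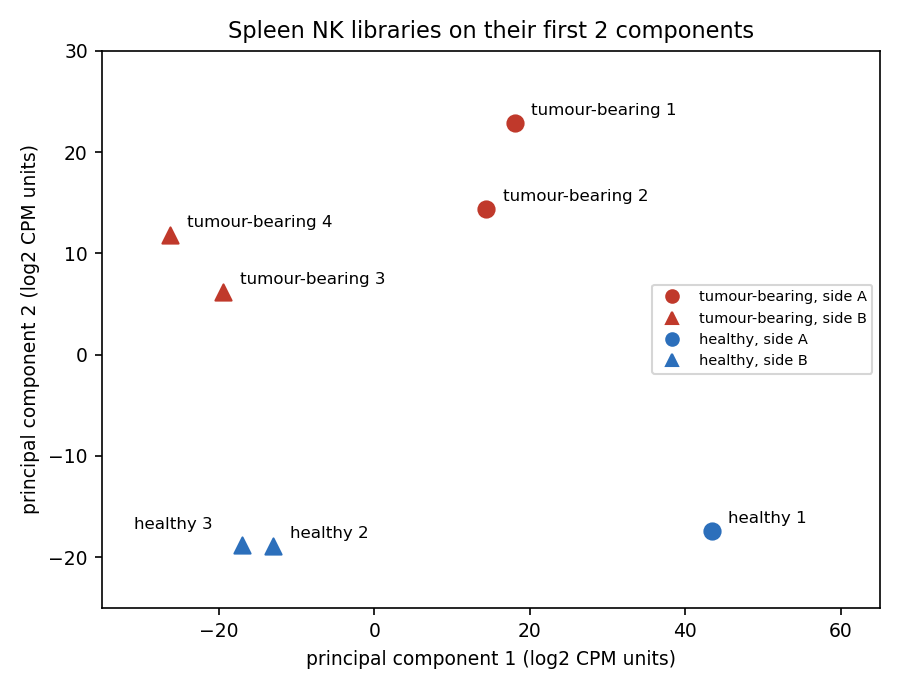
Position of each of the 7 spleen NK libraries on the first (x axis) and second (y axis) principal component of log2 CPM, in log2 units, coloured by group and shaped by side. The x axis parts the sides and the y axis parts the groups, with all 4 tumour-bearing libraries at 6.15 or above and all 3 healthy ones at −17.4 or below.

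The sort was for NK cells, and 10 NK genes, among them Ncr1 (the NKp46 of the sort), Klrb1c, Prf1 and Gzma, summed to 27700 to 31400 CPM in the tumour-bearing libraries and 27100 to 29500 CPM in the healthy ones. Most of this sum was Gzma, and of the 10 genes Eomes, Klrb1c and Klrk1 were called lower and Il2rb higher. Transcripts of some other cell types moved with the group. Of 12 T cell markers 4 were listed, and they summed to 109 to 159 CPM in tumour-bearing libraries and 44.9 to 84 CPM in healthy ones. Most of the increase was in Cd3d, a chain of the T cell receptor complex, at 85.1, 59.96, 80.8 and 108 CPM in the tumour-bearing libraries and 20.9, 27.2 and 39.4 CPM in the healthy ones, with no overlap and a log2 fold change of 1.58. Cd3g was at 45.3, 42.5, 55.7 and 45.9 CPM in the tumour-bearing libraries and 22.5, 36.6 and 41.2 CPM in the healthy ones. It did not overlap either, but was not called (0.53, adjusted p 0.0651, edgeR). Of 12 dendritic cell markers 6 were listed, with 370 to 527 CPM against 218 to 317 CPM. Most of this sum was Itgax, at 250, 260, 332 and 280 CPM in the tumour-bearing libraries and 154, 164 and 182 CPM in the healthy ones. Of the listed markers Cd74, H2-Eb1, H2-Ab1, Itgax and Bst2 were called higher and H2-Aa was not. Without the side in the model only Itgax and H2-Eb1 were called, and H2-Ab1 and Bst2 overlapped between the groups. B cell genes (2 of 12 listed) summed to 8.73 to 16.6 CPM in tumour-bearing and 20 to 26.6 CPM in healthy libraries. Neutrophil markers (6 of 15) lay between 1.5 and 14 CPM against 1.66 to 8.02 CPM, and monocyte and macrophage markers (10 of 17) between 138 and 152 CPM against 142 to 161 CPM, with Csf1r at 0 in all libraries. Carcinoma and epithelial markers (2 of 10) were at or near 0, at most 2.91 CPM in tumour-bearing and 3.21 CPM in healthy libraries. Other lists moved with the group through few genes. Basophil and mast cell genes (2 of 8) were at 26.8 to 41.7 CPM against 12.8 to 16.1 CPM and progenitor genes (4 of 7) at 64.2 to 81.1 CPM against 32.6 to 56.1 CPM, both holding Kit, which was called higher. Of the erythroid genes (2 of 13 listed) Car2 was called higher, at 369.7, 274, 222 and 244 CPM in the tumour-bearing libraries and 233, 165 and 198 CPM in the healthy ones, with overlapping groups. Endothelial and stromal genes (3 of 10) were at 84.3 to 103 CPM against 54.5 to 89.2 CPM, ranges that overlap. Of them Pecam1 was called higher, with overlapping groups. Like Car2, it was not called without the side in the model. The part of transcripts of other cell types in the results below was not tested.

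Of the 10210 listed genes 8282 passed the filter on low counts. In spleen NK cells of tumour-bearing mice 443 genes were higher (5.35% of those tested) and 248 lower (2.99%), which is 691 genes or 8.34% at a Benjamini-Hochberg adjusted p under 0.05 in edgeR's quasi-likelihood test with the side as a block. The unadjusted p was under 0.05 for 1818 genes. Most changes were moderate. The median log2 fold change was 0.64 among the higher and −0.61 among the lower genes, and 121 of the higher and 44 of the lower genes passed 2-fold. Of the tested genes 1034 (12.5%) had CPM ranges that were separate between the groups, 549 of them higher and 485 lower, and 443 of the 691 called genes were among them. Without the side in the model 114 genes passed (1.38%), 93 higher and 21 lower, and all 114 were among the 691. In these bulk samples, fewer cells that express a gene and less of its RNA per cell cannot be told apart.

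Single libraries moved the counts. Without healthy replicate 1, which leaves side A with no healthy library, 193 genes were higher and 87 lower. Without healthy replicate 2 there were 287 and 149, and without tumour-bearing replicate 4 there were 311 and 144. With a fold change of its own for each side in 1 model of all 7 libraries, side A (2 tumour-bearing libraries and 1 healthy, whose spread is taken from the other libraries) called 265 genes, of which 94% had the same sign on side B and 32.5% were called there. Side B (2 against 2) called 272, of which 95.2% had the same sign on side A and 31.6% were called there. Both sides called 86 genes the same way. Of the 691 genes called with the block 690 had the same sign on both sides, which the block itself favours, and of all tested genes 63.3% did.

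**Figure D2:**
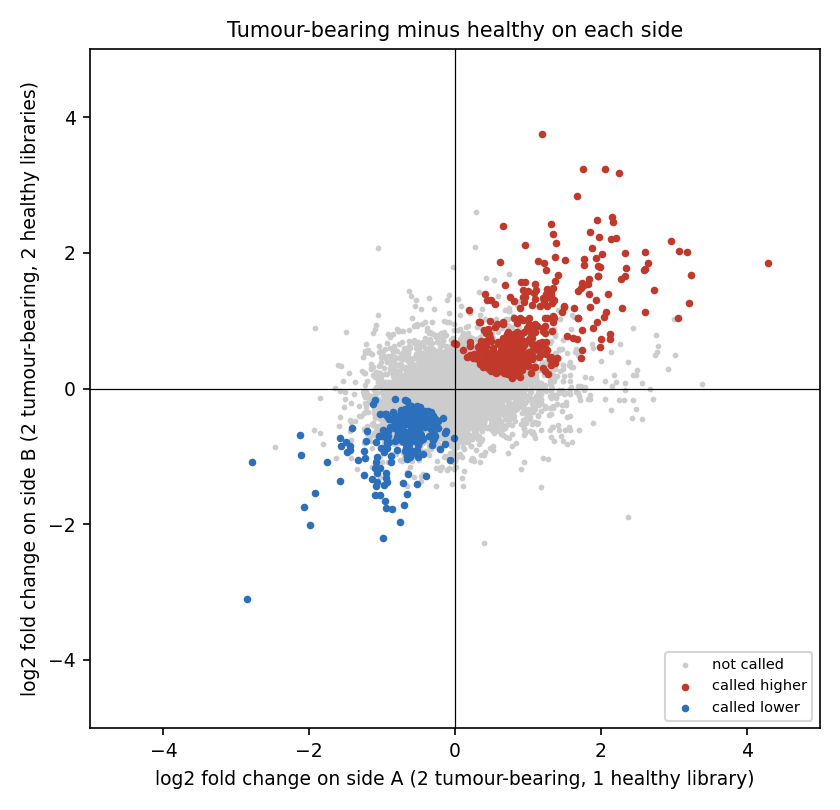
Log2 fold change of each tested gene, tumour-bearing minus healthy, on side A (x axis) and side B (y axis), with genes called higher in red, called lower in blue and the others in grey. Called genes lie in the upper right and lower left corners except 1 of 691, and 27 genes past 5 on either axis, 6 of them called, are not drawn.

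The genes named next had the largest fold changes among those called with and without the side in the model, with groups that did not overlap and at least 10 counts on average in the lower group. Nrgn, which encodes the calmodulin-binding protein neurogranin (chr9:37544492-37552904, minus strand), was at 462, 508, 637 and 703 CPM in the tumour-bearing libraries and 111, 137 and 156 CPM in the healthy ones. Every tumour-bearing library was far above every healthy one, and the log2 fold change was 2.18 (SE 0.117, adjusted p 1.31e-15, edgeR). Tnfrsf9 (chr4:150914562-150946102, plus strand) encodes 4-1BB, a costimulatory receptor that appears on activated lymphocytes. It was at 82.7, 110, 114 and 124 CPM in the tumour-bearing libraries and 24.1, 29.97 and 30.01 CPM in the healthy ones, a rise of 1.99 (SE 0.162, adjusted p 8.93e-11, edgeR). Cx3cr1 (chr9:119901616-120069879, minus strand), the fractalkine receptor of circulating NK cells, was at 93.8, 149.6, 156 and 157 CPM in the tumour-bearing libraries and 52.9, 44.4 and 42.02 CPM in the healthy ones. The groups did not overlap, though tumour-bearing replicate 1 lay below the other three, and the rise was 1.68 (SE 0.162, adjusted p 3.5e-09, edgeR). Klrb1b (chr6:128813706-128826331, minus strand), an inhibitory lectin-like receptor, rose by 1.83, Plk3 (chr4:117128655-117133963, minus strand), a stress-responsive kinase of the polo family, by 1.93, and the transcription factor gene Egr1 by 1.81. Ugt1a6b, a glucuronosyltransferase gene, rose by 2.05. It shares its 3′ exons with the other Ugt1a genes, so this value may be of any of them. The chemokine genes Ccl4 and Xcl1 and the cell division genes Spc24, Ube2c and Birc5 complete the 12 largest rises and are described with their groups.

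Denn2b showed the largest fall. It encodes an exchange factor for Rab GTPases, is also known as St5, and was at 15.1, 8.73, 13.9 and 3.76 CPM in the tumour-bearing libraries and 83.4, 89.3 and 74.6 CPM in the healthy ones. All 4 tumour-bearing libraries were below every healthy one, and the log2 fold change was −2.99 (SE 0.23, adjusted p 2.1e-11, edgeR). Gpr25 (chr1:136259797-136260873, minus strand), a G-protein-coupled receptor gene, was at 11.1, 9.896, 17.7 and 11.3 CPM in the tumour-bearing libraries and 41.7, 60.5 and 60.02 CPM in the healthy ones. It fell by 2.00 on the log2 scale (SE 0.212, adjusted p 2.35e-08, edgeR). Cym (chr3:107211293-107221732, minus strand), the gene of the milk-clotting protease chymosin, was at 29.4, 27.4, 25.7 and 19.6 CPM in the tumour-bearing libraries and 57.8, 74.4 and 60.9 CPM in the healthy ones and fell by 1.38. Dhrs3 (chr4:144892827-144928209, plus strand), whose enzyme turns retinaldehyde back into retinol, was at 83.5, 78.0, 80.3 and 67.7 CPM in the tumour-bearing libraries and 168, 207 and 179 CPM in the healthy ones, and fell by 1.27. Cited2 (chr10:17723218-17725674, plus strand), a regulator that binds the coactivators CBP and p300, was at 107, 116, 84.5 and 94.8 CPM in the tumour-bearing libraries and 241, 205 and 199 CPM in the healthy ones and fell by 1.15. These 5 genes were separated by group in every library. The other falls were of Slc25a23 (−1.29), a mitochondrial carrier of ATP, Carns1 (−1.06), the carnosine synthase, the Polycomb gene Cbx7 (−0.96), the small GTPase gene Arl5c (−0.85), the sphingomyelinase gene Smpd5 (−0.82), the arsenic methyltransferase gene As3mt (−0.76) and the histone H2A deubiquitinase gene Mysm1 (−0.69).

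**Figure D3:**
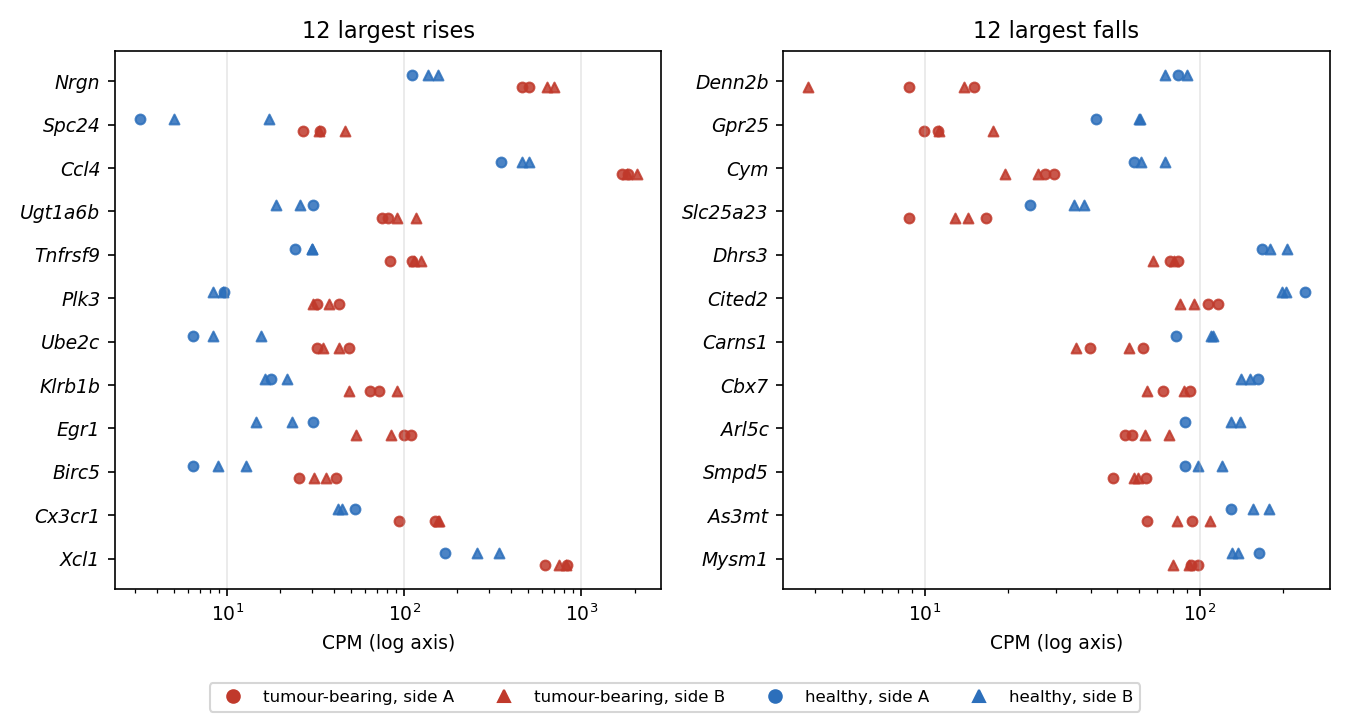
CPM in each library on a log axis for the 12 largest rises (left) and the 12 largest falls (right), with tumour-bearing libraries in red, healthy ones in blue, circles for side A and triangles for side B. Red and blue points do not overlap for any of these genes, which the rule for naming them required.

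Among genes called with and without the side and not overlapping between the groups, those of highest mean CPM were Ccl4, Dusp2, Ccl3, Gzmb, Crip1 and Hsp90ab1 in the higher direction and Arl4c, Acp5, Uba7, Camk2g, Cited2 and Agtrap in the lower one. Dusp2, a phosphatase that switches off MAP kinases, was at 1533, 1639, 1415 and 1714 CPM in the tumour-bearing libraries and 725, 879.7 and 771 CPM in the healthy ones, a rise of 1.00 (SE 0.117, adjusted p 1.76e-07, edgeR). Crip1, a LIM-domain gene, rose by 0.83. Uba7, the activating enzyme for the ubiquitin-like protein ISG15, was at 162, 129.8, 158 and 158 CPM in the tumour-bearing libraries and 208, 238 and 249.5 CPM in the healthy ones and fell by 0.59 (SE 0.115, adjusted p 0.000674, edgeR). Arl4c, a small GTPase gene, fell by 0.59, Acp5, tartrate-resistant acid phosphatase, by 0.63, Camk2g, a calmodulin-dependent kinase, by 0.66, and Agtrap, which binds the angiotensin receptor, by 0.62. In all, 34 genes were named by fold or level. All 34 were called the same way in each of 13 other fits with the side as a block, libraries left out included. In each of all 25 other fits 13 of them were. The rule for naming them, which required separate groups and a call with and without the side, favours this. The 13 fits do not include those with a fold change of its own for each side. In those, Cym, Slc25a23, Carns1, Arl5c, Smpd5, As3mt, Arl4c, Uba7, Camk2g and Agtrap were lower on side A too but were not called there.

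Of the 24 gene lists, mitosis had the highest median. Of 50 genes of mitosis 47 were listed and 35 passed the filter. Of these 25 were called, all of them higher (71.4%, against 8.34% of all genes), and the median log2 fold change was 1.43, against −0.02 over all genes. Without the side in the model 14 passed, again all higher, and DESeq2 with the side called 16. The promoters of 3 of them are printed as examples, picked for their many matches. Genes expressed late in the cell cycle are bound at CCAAT boxes by NF-Y and at the cell cycle genes homology region (CHR, searched as TTTGAA) by the DREAM and MuvB complexes. The 250 bases before the RefSeq start are printed 5′ to 3′ in the direction of the gene (build GRCm38.p6), with each CCAAT or TTTGAA match on either strand in capitals.
Ube2c: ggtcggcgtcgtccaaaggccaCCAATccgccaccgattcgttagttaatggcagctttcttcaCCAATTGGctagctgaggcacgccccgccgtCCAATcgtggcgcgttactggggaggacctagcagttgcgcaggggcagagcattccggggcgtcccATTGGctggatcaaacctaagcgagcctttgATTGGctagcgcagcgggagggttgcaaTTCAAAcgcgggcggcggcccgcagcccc
Top2a: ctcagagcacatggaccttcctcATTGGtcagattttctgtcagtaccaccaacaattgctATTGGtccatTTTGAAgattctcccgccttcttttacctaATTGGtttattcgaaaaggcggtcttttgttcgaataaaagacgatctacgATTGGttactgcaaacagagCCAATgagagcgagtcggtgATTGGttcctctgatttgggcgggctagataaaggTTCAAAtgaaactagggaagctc
Cks1b: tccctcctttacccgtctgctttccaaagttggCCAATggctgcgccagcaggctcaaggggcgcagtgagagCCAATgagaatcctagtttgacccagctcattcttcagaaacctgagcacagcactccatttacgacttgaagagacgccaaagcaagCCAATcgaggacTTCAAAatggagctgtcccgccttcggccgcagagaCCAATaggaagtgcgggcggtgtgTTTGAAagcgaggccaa

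The Ube2c window (chr2:164769679-164769928, plus strand) held 6 CCAAT and 1 CHR match, that of Top2a (chr11:99024190-99024439, minus strand) 6 and 2, and that of Cks1b (chr3:89418292-89418541, minus strand) 4 and 2. The windows of Birc5, Ndc80 and Mxd3, which were called higher too, held neither motif. Overlapping matches on opposite strands were counted as separate matches. Windows were found for 30 of the 35 mitosis genes tested. Of their 32 windows 81.2% held CCAAT and 50% held TTTGAA. Among 8608 windows of 6734 tested genes these shares were 34.8% and 10.5%, and in the windows of the DNA replication list they were 61.5% and 15.4%. A match describes the sequence and does not show binding in these cells.

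Mki67, the gene of the proliferation marker Ki-67, was at 54.1, 40.2, 47.6 and 37.6 CPM in the tumour-bearing libraries and 14.4, 16.1 and 15.4 CPM in the healthy ones, with no overlap, and rose by 1.497 (SE 0.224, adjusted p 1.61e-05, edgeR). Top2a, the topoisomerase that untangles sister chromatids, was at 74.7, 57.6, 59.9 and 62.4 CPM in the tumour-bearing libraries and 30.5, 19.4 and 23.1 CPM in the healthy ones, again with no overlap, and rose by 1.41. Ube2c (chr2:164769898-164778822, plus strand), the ubiquitin-conjugating enzyme of the anaphase-promoting complex, was at 48.5, 32.02, 34.8 and 42.9 CPM in the tumour-bearing libraries and 6.42, 8.32 and 15.4 CPM in the healthy ones and rose by 1.92 (SE 0.272, adjusted p 6.72e-06, edgeR). Birc5, survivin of the chromosomal passenger complex, rose by 1.78, and its partner genes Aurkb and Cdca8 by 1.55 and 1.19. Of the mitosis genes with fold changes given here 5 lost the call when 1 library was left out: Aurkb without tumour-bearing replicate 3 or healthy replicate 1 (adjusted p 0.123), Cdca8 without healthy replicate 2 (adjusted p 0.0797), Bub1b without healthy replicate 2 (adjusted p 0.0849), Ccna2 without healthy replicate 1 (adjusted p 0.0649) and Ndc80 without healthy replicate 1 (adjusted p 0.0773). Other called mitosis genes, Plk1, Kif23, Ncapg, Ckap2l, Cenpa and Tacc3, lost it too in at least 1 such fit.

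The kinetochore genes Spc24, Spc25 and Ndc80 rose by 2.15, 1.88 and 1.63. Spc24 was at 33.4, 26.8, 46.02 and 33.1 CPM in the tumour-bearing libraries and 3.21, 4.995 and 17.1 CPM in the healthy ones, and healthy replicate 3 lay above the other healthy libraries. Cyclins Ccna2, Ccnb2 and Ccnf rose by 2.35, 1.72 and 2.22, the cyclin-dependent kinase subunit Cks1b by 1.41, the spindle motors Kif11 and Kif22 by 1.83 and 1.43 and the checkpoint kinase gene Bub1b by 1.84. Healthy levels of Ccna2, Ccnf, Spc25 and Bub1b were between 0 and 6.42 CPM, near the limit of a count of 0, so the sizes of these folds are imprecise. Not called were Aurka (1.18, adjusted p 0.135), Cdc20 (0.89, 0.0716), Stmn1, Nusap1, Mad2l1, Smc2, Smc4, Bub3, Racgap1 and Prc1, all with positive fold changes in edgeR's test. Over the fits that left out 1 library with the side kept, 17 to 26 mitosis genes were called and the median stayed between 1.353 and 1.598. Without the side the count fell to between 6 and 10 when tumour-bearing replicates or healthy replicate 1 or 3 were left out, and no mitosis gene was called without healthy replicate 2 (28 at an unadjusted p under 0.05, edgeR, all higher).

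**Figure D4:**
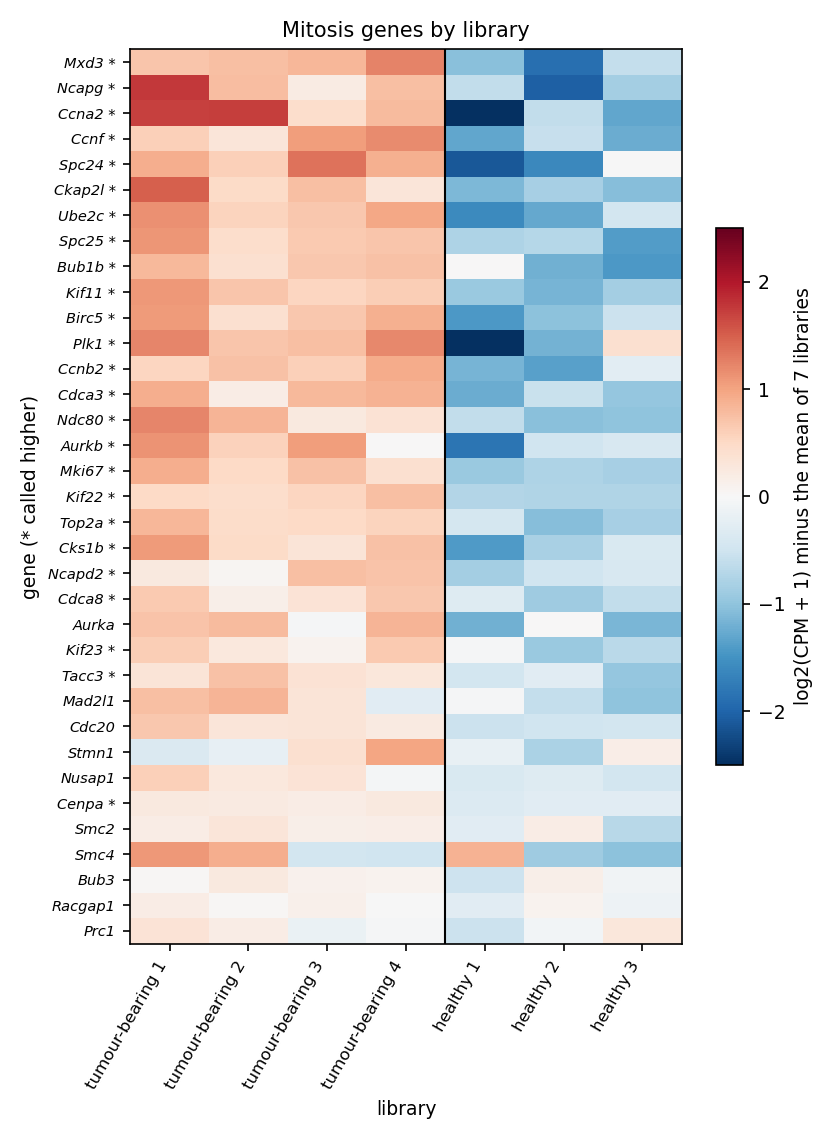
Log2(CPM + 1) of each tested mitosis gene (rows, sorted by fold change, called genes marked with an asterisk) in each library (columns), minus the gene's mean over the 7 libraries. Most upper rows are red in the 4 tumour-bearing columns and blue in the 3 healthy ones, and the lowest rows show no such pattern.

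Of 44 DNA replication genes 40 were listed, 37 tested and 16 called (43.2%, against 8.34% of all genes), all higher, while 21 did not pass. The median was 0.64 (6 without the side in the model, 9 in DESeq2 with it, and 9 without healthy replicate 1). Mcm6, a subunit of the replicative helicase, was at 106, 83.2, 92.6 and 111 CPM in the tumour-bearing libraries and 64.2, 53.8 and 53.2 CPM in the healthy ones, a rise of 0.81 (SE 0.147, adjusted p 0.000258, edgeR), and Mcm2, Mcm3 and Mcm5 rose by 0.74, 0.74 and 0.73. Mcm4 and Mcm7 were at 0.41 and 0.27 and were not called. The helicase partners Cdc45 and Gins2 rose by 1.797 and 1.91, the transcription factor gene E2f1 by 2.17 and Uhrf1, which carries DNA methylation through replication, by 2.86. Their healthy levels reached at most 6.42 CPM. Pcna, the sliding clamp, was at 0.34 with an adjusted p of 0.0578 in edgeR's test. E2F words (TTTCCCGC, TTTCGCGC, TTTGCCGC or TTTGGCGC) were in 20.5% of the 39 promoter windows found for 32 of these genes and in 3.47% of all windows, and in 3.12% of the mitosis windows.

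Of 22 genes of secreted cytokines and chemokines 19 were listed, 13 tested and 6 called (46.2%, against 8.34% of all genes). All 6 were higher, 5 of them also called without the side in the model, and the list median was 0.68. Ccl4 (chr11:83662584-83664683, plus strand) and Ccl3 (chr11:83647844-83649355, minus strand) encode the macrophage inflammatory proteins, chemokines that attract leukocytes. Ccl4 was at 1845, 1691, 2056 and 1812 CPM in the tumour-bearing libraries and 353, 464 and 504 CPM in the healthy ones, and the rise was 2.12 (SE 0.122, adjusted p 6.21e-15, edgeR). Ccl3 was at 1279, 1350, 1723 and 1238 CPM in the tumour-bearing libraries and 525, 624 and 616 CPM in the healthy ones, a rise of 1.28 (SE 0.12, adjusted p 1.89e-09, edgeR). For both genes every tumour-bearing library was far above every healthy one. Xcl1 (chr1:164931644-164935527, minus strand), which attracts XCR1-bearing dendritic cells, was at 832, 622, 749.7 and 820 CPM in the tumour-bearing libraries and 170, 259 and 341 CPM in the healthy ones and rose by 1.62. Spp1, osteopontin, was at 23.9, 22.7, 31.04 and 30.8 CPM in the tumour-bearing libraries and 4.81, 3.88 and 2.57 CPM in the healthy ones. It rose by 2.98, a size that is imprecise because the healthy libraries were near the limit of a count of 0.

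Ifng, interferon gamma, was at 384, 358, 489 and 268 CPM in the tumour-bearing libraries and 116, 195 and 172 CPM in the healthy ones, with no overlap and tumour-bearing replicate 4 the lowest of its group. It rose by 1.24 (SE 0.227, adjusted p 0.0117, edgeR). Tnfsf14, LIGHT, rose by 0.51. Calls were lost for Ifng without tumour-bearing replicate 1 or healthy replicate 3 (adjusted p 0.0614 to 0.0787) and for Tnfsf14 without healthy replicate 1 or 2 (adjusted p 0.077 to 0.116). Not called were Tnf (0.75), Csf2 (0.68), Tgfb1 (0.35), Ccl5 (0.11), Ltb (−0.05), Flt3l (−0.23) and Vegfa (−0.73). Of the death machinery, 3 of 20 tested genes were called (15%, against 8.34% of all genes), all higher, with a median of 0.16. Without healthy replicate 2 the count was 5. Gzmb (chr14:56258838-56262260, minus strand), granzyme B, was at 1076, 1212, 1228 and 1221 CPM in the tumour-bearing libraries and 460.4, 563 and 370.4 CPM in the healthy ones, a rise of 1.36 (SE 0.124, adjusted p 1.38e-09, edgeR). Srgn, the proteoglycan that packs granules, and Cst7, a cathepsin inhibitor, rose by 0.44 and 0.62 with the side in the model and were not called without it. Gzma and Prf1 had log2 fold changes of 0.05 and 0.11 and were not called (adjusted p 0.869 and 0.679, edgeR), and the same held for Fasl (0.21) and Gzmk (−0.12).

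Among inhibitory and checkpoint genes 5 of 19 tested were higher and 3 lower (42.1%, against 8.34% of all genes), with a median of 0.14. Lag3, an inhibitory receptor for MHC class II, was at 20.7, 18.1, 20.9 and 54.9 CPM in the tumour-bearing libraries and 0, 3.33 and 4.29 CPM in the healthy ones. Tigit, which competes with the activating receptor CD226 for CD155, was at 23.1, 18.6, 26.2 and 27.8 CPM in the tumour-bearing libraries and 6.42, 4.44 and 2.57 CPM in the healthy ones. For both, every tumour-bearing library was above every healthy one, Lag3 being highest in tumour-bearing replicate 4, and log2 fold changes of 3.42 (SE 0.452) and 2.57 (SE 0.344) rest on few healthy counts. Klrb1b was at 64.4, 72.2, 48.7 and 91.03 CPM in the tumour-bearing libraries and 17.6, 21.6 and 16.3 CPM in the healthy ones, again with no overlap (adjusted p 3.86e-07, edgeR). Ptpn6, the phosphatase SHP-1 that carries inhibitory signals, rose by 0.74, and Klra5 by 1.27. Calls were also made for the MHC-binding receptor genes Klra3, Klra9 and Klrd1, at −0.84, −1.08 and −0.61. Within each group their levels were higher on side A: Klra9 was at 204, 214, 99.0 and 82.8 CPM in the tumour-bearing libraries and 443, 182 and 206 CPM in the healthy ones, and the groups overlapped. None of these 3, nor Klra5, was called without the side in the model (adjusted p 0.697, 0.62, 0.697 and 0.562, edgeR), and near-identical Klra genes could share reads. With the side kept, the call was lost for Klra5 without healthy replicate 1 or 2 (adjusted p 0.0641 to 0.0997).

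Activating receptors and adaptors were called in both directions, 3 higher and 5 lower of 28 tested (28.6%, against 8.34% of all genes). The median was −0.01. Tnfrsf9 was 1 of the 3 higher genes and the only one also called without the side in the model. Crtam, an adhesion receptor of activated lymphocytes, rose by 0.86 and Zap70, a kinase of the receptor adaptors, by 0.36. Klrb1c, the NK1.1 family receptor gene, was at 346, 345, 322 and 342 CPM in the tumour-bearing libraries and 464, 469.5 and 452 CPM in the healthy ones, with no overlap, and fell by 0.46 (SE 0.102, adjusted p 0.00317, edgeR). Cd2 fell by 0.39, the Fc receptor gene Fcgr3 by 0.50, Klrk1, NKG2D, by 0.46 and Slamf6 by 0.55. Klrk1 and Slamf6 overlapped between the groups, and none of the 5 lower genes was called without the side (4 of the 28 were lower at an unadjusted p under 0.05 in that edgeR fit, and DESeq2 with the side called 4 lower). With the side kept, calls were lost for Cd2 without tumour-bearing replicate 2 or 3 or healthy replicate 2 (adjusted p 0.0615 to 0.0787), Fcgr3 without tumour-bearing replicate 4 or healthy replicate 1 (adjusted p 0.0669 to 0.0903), Klrk1 without healthy replicate 1 or 2 (adjusted p 0.0539 to 0.0579), Zap70 without tumour-bearing replicate 2 or 4 or healthy replicate 2 or 3 (adjusted p 0.0904 to 0.306) and Slamf6 without tumour-bearing replicate 2 or 3 or 4 or healthy replicate 1 or 2 or 3 (adjusted p 0.056 to 0.122). Ncr1, the gene of the sorting marker NKp46, was at −0.32 (adjusted p 0.113, edgeR), and Cd226 at −0.899 (adjusted p 0.107).

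Genes switched on within minutes to hours of receptor or cytokine signals were called in 1 direction. Of 43 genes 42 were listed, 37 tested and 12 called (32.4%, against 8.34% of all genes), all higher, with a median of 0.29. Without the side in the model 7 were called. Egr1 was at 109, 100.1, 84.02 and 53.4 CPM in the tumour-bearing libraries and 30.5, 23.3 and 14.6 CPM in the healthy ones, with no overlap, and rose by 1.81 (SE 0.196, adjusted p 3.48e-08, edgeR). Egr2 and Egr3 rose by 2.08 and 2.34, where healthy levels were 1.72 to 9.62 and 1.604 to 6.002 CPM, and Rgs16, which shortens G-protein signals, by 2.82. Rgs16 was at 21.5, 22.7, 26.2 and 21.1 CPM in the tumour-bearing libraries and 9.62, 0.555 and 3.43 CPM in the healthy ones, so healthy replicate 1 lay well above the other healthy libraries. Jun was at 29.4, 45.99, 39.6 and 30.1 CPM in the tumour-bearing libraries and 14.4, 13.3 and 7.72 CPM in the healthy ones and rose by 1.604, and Jund by 0.69. Nr4a3, Dusp5, Gadd45g, Rgs1 and Ier2 were called with the side in the model only, between 0.41 (Ier2) and 1.004 (Nr4a3), and each lost the call without at least 1 library: Nr4a3 without healthy replicate 2 (adjusted p 0.06), Dusp5 without tumour-bearing replicate 3 or healthy replicate 1 or 3 (adjusted p 0.114 to 0.132), Rgs1 without tumour-bearing replicate 3 or healthy replicate 1 or 3 (adjusted p 0.0615 to 0.211), Ier2 without tumour-bearing replicate 1 or 2 or 3 or healthy replicate 1 or 3 (adjusted p 0.0833 to 0.365) and Gadd45g without tumour-bearing replicate 1 or 4 or healthy replicate 1 or 2 or 3 (adjusted p 0.0501 to 0.203). Over the libraries left out, 8 to 14 genes of the list were called with the side, the lowest without healthy replicate 1 or 3. Without the side it had 7, 2 without healthy replicate 3, 4 without tumour-bearing replicate 1, 2 or 3, and none without healthy replicate 2 (10 at an unadjusted p under 0.05, edgeR, all higher). Not called were Fos (0.85), Nr4a1 (0.86), Junb (0.402), Nfkbia (0.04), Cd69 (−0.02) and Ier5 (−0.86).

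Among genes high in less mature NK cells 5 of 18 were higher and 2 lower, and among genes high in mature NK cells 6 of 18 were higher and 3 lower, with medians of 0.05 and 0.04. The shares called were 38.9% and 50%, against 8.34% of all genes. Without the side the calls were 3 and 2, all of them higher, so every lower call needed the side (0 and 2 genes were lower at an unadjusted p under 0.05 in that edgeR fit, and DESeq2 with the side called 1 and 2 lower). Of the former, Kit, the stem cell factor receptor, which is also on the mast cell and progenitor lists, was at 33.4, 26.8, 41.2 and 36.9 CPM in the tumour-bearing libraries and 12.8, 16.1 and 14.6 CPM in the healthy ones and rose by 1.31 (SE 0.23, adjusted p 0.000174, edgeR), Thy1, at 479, 369, 417 and 551 CPM in the tumour-bearing libraries and 165, 236 and 232 CPM in the healthy ones, rose by 1.15, and Xcl1, Cd7 and Id2 were higher too. Of the latter, Cx3cr1 and Irf8 rose, Irf8 by 0.95 with 811, 986, 961 and 951 CPM in the tumour-bearing libraries and 513, 502 and 425 CPM in the healthy ones. S100a6, S100a4 and Lgals1 rose by 0.82, 0.72 and 0.64 with the side in the model and were not called without it. Cd27 (0.25), Itgam (0.02), Klrg1 (0.14), Tbx21 (0.15), Tcf7 (0.09) and Gata3 (−0.14) were not called. Eomes, a transcription factor that defines NK cells, was called at −0.43 with the side in the model, but its levels of 596, 556, 396 and 328 CPM in tumour-bearing and 841, 496 and 427 CPM in healthy libraries were higher on side A within each group, and it was not called without it (adjusted p 0.784). Calls were lost for Eomes without healthy replicate 1 or 2 (adjusted p 0.0544 to 0.15), Id2 without tumour-bearing replicate 4 or healthy replicate 1 or 2 (adjusted p 0.0803 to 0.186), S100a4 without healthy replicate 1 (adjusted p 0.0616) and Prdm1 without tumour-bearing replicate 1 or 4 or healthy replicate 1 or 2 (adjusted p 0.0886 to 0.555). Prdm1, which encodes BLIMP-1, was at −0.59 (adjusted p 0.0478, edgeR) with overlapping groups.

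Of 25 homing genes 2 were higher and 4 lower (24%, against 8.34% of all genes), with a median of −0.11. Itgax, CD11c, which is also on the dendritic cell list, was at 250.5, 260.2, 332 and 279.9 CPM in the tumour-bearing libraries and 154, 164 and 182 CPM in the healthy ones, and rose by 0.797 (SE 0.115, adjusted p 8.79e-06, edgeR). S1pr5 and S1pr1, the sphingosine-1-phosphate receptors by which NK cells leave tissues, fell by 0.43 and 1.27, and Klf2, a transcription factor that drives S1pr1, by 0.34. These 3 had groups that did not overlap, as had 12.5% of all tested genes. S1pr1 was at 8.75, 5.82, 5.35 and 5.27 CPM in the tumour-bearing libraries and 11.2, 15.5 and 16.3 CPM in the healthy ones. None of the 3 was called without the side in the model (4 genes of the list were lower at an unadjusted p under 0.05 in that edgeR fit, and DESeq2 with the side called 2). Calls were lost for S1pr5 without tumour-bearing replicate 4 or healthy replicate 1 or 2 (adjusted p 0.112 to 0.161), S1pr1 without tumour-bearing replicate 3 or 4 or healthy replicate 2 (adjusted p 0.056 to 0.077) and Klf2 without tumour-bearing replicate 3 or 4 or healthy replicate 2 or 3 (adjusted p 0.0684 to 0.168). The other lower gene, Itga2, was at 128, 134, 93.1 and 65.5 CPM in the tumour-bearing libraries and 210.2, 114 and 80.6 CPM in the healthy ones, and the groups overlapped. The call was also lost for Itga2 without tumour-bearing replicate 1 or 2 or 4 or healthy replicate 1 or 2 (adjusted p 0.0646 to 0.414). Without healthy replicate 2, and likewise without tumour-bearing replicate 4, the list had 0 lower calls (7 at an unadjusted p under 0.05 in each of these edgeR fits). Cxcr3 (0.004), Ccr2 (−0.18), Cxcr4 (−0.74) and Cxcr6 (−0.11) were not called.

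Cytokine signalling genes were split, 6 higher and 6 lower of 33 (36.4%, against 8.34% of all genes). Socs1, the feedback inhibitor of JAK kinases, was at 84.3, 56.5, 57.3 and 86.5 CPM in the tumour-bearing libraries and 28.9, 37.2 and 30.01 CPM in the healthy ones, with no overlap, and rose by 1.096 (SE 0.192, adjusted p 0.000174, edgeR), and the survival kinase gene Pim2 by 0.96. These were the only members also called without the side. Bcl2 and Il2rb, the shared receptor chain for interleukins 2 and 15, rose by 0.54 and 0.48. Il18rap and Smad3 fell by 0.38 and 0.42 with groups that did not overlap. Il18r1, Il7r, Jak1 and Stat4 were called lower with overlapping groups. Calls were lost for Il2rb without healthy replicate 1 (adjusted p 0.0811), Smad3 without healthy replicate 1 (adjusted p 0.204), Il18rap without tumour-bearing replicate 2 or 4 or healthy replicate 1 or 2 (adjusted p 0.0543 to 0.13), Il7r without tumour-bearing replicate 2 or 3 or healthy replicate 1 or 3 (adjusted p 0.0643 to 0.287), Jak1 without tumour-bearing replicate 2 or 4 or healthy replicate 1 or 2 (adjusted p 0.0596 to 0.257) and Stat4 without tumour-bearing replicate 2 or 3 or 4 or healthy replicate 1 or 2 (adjusted p 0.0641 to 0.142). Interferon response genes stayed near the background, with 2 higher and 1 lower of 34 (8.82%) and a median of 0.04 (4 higher without healthy replicate 3, and 1 without healthy replicate 2 or tumour-bearing replicate 4). Ifi27l2a (1.64) and Bst2 (0.68) were higher and Ifi203 (−0.499) lower, all with overlapping groups, and calls were lost for Bst2 without tumour-bearing replicate 4 or healthy replicate 1 or 2 (adjusted p 0.149 to 0.176) and Ifi203 without tumour-bearing replicate 1 or 2 or 4 or healthy replicate 1 or 2 (adjusted p 0.0814 to 0.408). Isg15 (0.45), Irf7 (−0.32) and Gbp2 (−0.67) were not called. In MHC class I presentation 4 of 21 were higher (19%, against 8.34% of all genes). H2-K1 rose by 0.402, Psme2 by 0.404 and the chaperone genes Calr and Pdia3 by 0.71 and 0.62. Calls were lost for H2-K1 without tumour-bearing replicate 2 or 4 or healthy replicate 1 or 2 (adjusted p 0.0642 to 0.15) and Psme2 without tumour-bearing replicate 4 or healthy replicate 1 or 3 (adjusted p 0.0585 to 0.141), and the count was 2 without tumour-bearing replicate 4. Without the side none was called (2 at an unadjusted p under 0.05, edgeR, and 4 in DESeq2 with the side).

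Of the cytosolic chaperone genes 9 of 24 tested were called (37.5%, against 8.34% of all genes), all higher, with a median of 0.31. Without the side 4 were called. Hsp90ab1 (chr17:45567775-45573271, minus strand), the constitutive HSP90 beta, was at 885, 989.6, 991 and 1131 CPM in the tumour-bearing libraries and 338, 477 and 492 CPM in the healthy ones, a rise of 1.25 (SE 0.115, adjusted p 1.38e-09, edgeR). Its co-chaperone gene Stip1 was at 323, 379.5, 319 and 345 CPM in the tumour-bearing libraries and 149, 191 and 157 CPM in the healthy ones, and Hsph1, an HSP70 exchange factor, at 192, 289, 188 and 226 CPM in the tumour-bearing libraries and 94.7, 92.1 and 72.9 CPM in the healthy ones. Stip1 rose by 1.03 and Hsph1 by 1.32, with no overlap, and Hspe1 and Hspa8 by 0.84 and 0.95. Hsp90aa1 (0.501), Dnajb1 (0.44), Bag3 (0.098) and Hsf1 (−0.08) were not called. Of 29 endoplasmic reticulum genes 13 were called (44.8%), all higher, with a median of 0.39. Calr, calreticulin, was at 786, 764, 968 and 890 CPM in the tumour-bearing libraries and 411, 649.9 and 581 CPM in the healthy ones and Ssr2, of the translocon complex, rose by 0.78. Without the side in the model no gene of this list was called (12 higher at an unadjusted p under 0.05, edgeR, and 9 in DESeq2 with the side). Without healthy replicate 1 the list had 6 higher genes, and 8 without healthy replicate 3.

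Genes of oxidative phosphorylation and the ribosome moved by small steps that depended on the sides and on healthy replicate 1. Of 84 oxidative phosphorylation genes 25 were called higher (29.8%, against 8.34% of all genes), with a median of 0.25. They were led by Uqcr10 (0.66) of complex III and Atp5g1 (0.65), a subunit of the ATP synthase. The call was lost for Atp5g1 without healthy replicate 1 or 2 (adjusted p 0.0759 to 0.118, edgeR). Without the side none was called (16 at an unadjusted p under 0.05, edgeR, and 21 in DESeq2 with the side). With it there were 3 without healthy replicate 1, 12 without healthy replicate 2, and 8 higher with 1 lower under a GC and length offset. The median of 80 ribosomal protein genes was 0.53 on side A and 0.10 on side B. Of them 9 were called higher (11.2%, close to the 8.34% of all genes). This count was 0 without healthy replicate 1, where the fit rests on side B (5 higher and 2 lower at an unadjusted p under 0.05, edgeR, and 7 higher in DESeq2 with all 7 libraries), 1 without healthy replicate 2 or tumour-bearing replicate 4, 25 without tumour-bearing replicate 3 and 22 without healthy replicate 3. Healthy replicate 1 had the lowest share of counts on these genes, 11.3%, where the other libraries had 13.3% to 17%.

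Of 33 cytoskeleton genes 9 were higher (27.3%, against 8.34% of all genes), among them Capg (1.05), a cap of actin filaments, Tuba1b (0.74) and Tubb5 (0.78). Without the side in the model 2 were called. With the side kept, the count was 4 without healthy replicate 1. Of 37 genes with a proteasome prefix 6 were higher (16.2%, against 8.34% of all genes). Of these Psmc3ip is a recombination gene and no proteasome subunit. The count was 1 without healthy replicate 1 and 3 without healthy replicate 2 or tumour-bearing replicate 4. Without the side 2 ribosomal and 2 proteasome genes had an unadjusted p under 0.05 and none passed adjustment in edgeR, while DESeq2 with the side called 7 and 2. Ribosome biogenesis had 4 of 43 higher (1 without the side), led by Nhp2 (0.97), a subunit of the small nucleolar particles that modify ribosomal RNA, with 156, 131, 154 and 172 CPM in the tumour-bearing libraries and 70.6, 83.8 and 83.2 CPM in the healthy ones. Translation factors had 3 higher and 1 lower of 41, glycolysis and hypoxia 2 higher of 23 (Ldha, 0.59, and Tpi1, 0.41, the call of Tpi1 being lost in most fits that left out 1 library), and cholesterol and lipid synthesis 1 higher and 1 lower of 20. The shares of these last 4 lists, 9.3%, 9.76%, 8.7% and 10%, are close to the 8.34% of all genes. Myc itself was at 0.28 (adjusted p 0.429, edgeR).

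**Figure D5:**
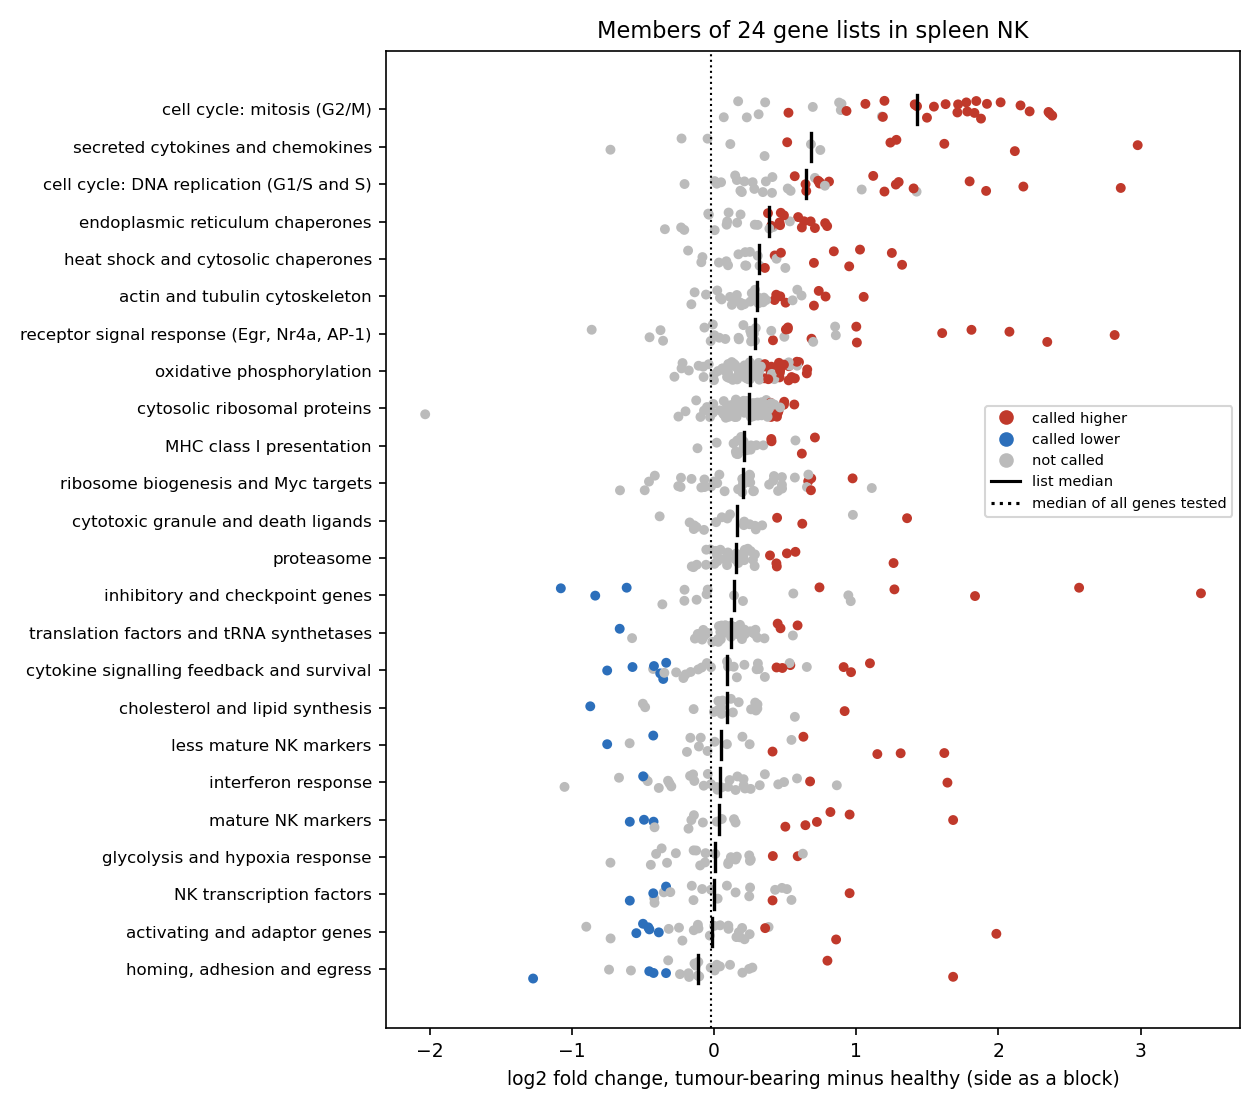
Log2 fold change, tumour-bearing minus healthy with the side as a block (x axis), of each tested member of 24 gene lists (rows), red where called higher, blue where called lower and grey otherwise, with the list median as a bar and the median of all genes, −0.02, as a dotted line. Mitosis genes have the highest median, 1.43, followed by secreted cytokines and chemokines at 0.68 and DNA replication at 0.64.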

How the data were processed

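Sorted NK cells were profiled by 3′ end RNA sequencing of polyA RNA, per the labels' protocols. The authors deposited raw counts per gene symbol for 11 NK libraries. Per the submitters' processing notes, the tools were bcl2fastq, STAR 2.4.2a and HTSeq and the build mm10; the annotation, strand setting and use of molecular identifiers are not given in the sources used here. All counts were whole numbers, the lowest maximum of a listed gene was 6 counts, and no mitochondrial gene was listed, so totals are sums over listed genes. Spleen columns were matched to samples by name. Some tumour columns, whose names were merged in the header, were assigned to their group by position.

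The 7 spleen libraries were fitted in edgeR 4.0.16 (R 4.3.3) with filterByExpr, TMM scaling (factors 0.933 to 1.12) and a robust quasi-likelihood model of group and side, with 4 residual degrees of freedom. Calls needed a Benjamini-Hochberg adjusted p under 0.05 over the 8282 genes tested. The standard error is the fold change divided by the square root of F. The side was found in these same data in earlier work. Replicate numbers did not pair the samples: deviations of same-numbered libraries correlated at 0.51, −0.358 and 0.35, and those of same-side libraries at 0.327 to 0.537. Genes were named as the 12 largest changes in each direction, by the criteria in the text, the 6 of highest mean CPM in each direction, and members of 24 functional lists; 14 marker lists were summed without a test. Some list members are not reported here. Names with a Gm, Rik or pseudogene pattern were left out. The comparison, the lists and the rules were chosen with earlier results of these data known. Positions come from GENCODE M21 (GRCm38, the assembly also called mm10), which held 10023 of the symbols, and promoters from RefSeq. The alternatives were another scaling, filter or tool (DESeq2 1.42.0), a GC and length offset, other blocks and all 11 NK libraries. Further ones were a fold change for each side in a model of the 7 libraries, and each library left out. The last was also run without the side, chosen after seeing the data. The model was also run on counts simulated from the means and dispersions of these data. They held no difference between the sides, so that run does not test the block.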

Additional observations from a re-analysis of the deposited data

Results flagged for a closer look

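In 60 sets of values from the 4 tumour-bearing libraries, 3 had a library far from the other three by Dixon's ratio of gap to range, and chance alone flags about 1 in 20 such sets. Cx3cr1 was at 93.82 CPM in tumour-bearing replicate 1 and at 149.6 to 157.2 CPM in the others (ratio 0.88). Gzmb was at 1076 CPM in the same library and at 1212 to 1228 CPM in the others (0.895). Uba7 was at 129.8 CPM in tumour-bearing replicate 2 and at 157.9 to 162.2 CPM in the others (0.867). Each of these values stayed on the group's own side of all healthy libraries, which the rule for naming these genes required.

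The difference between tumour-bearing and healthy libraries itself differed between the sides for 3 genes in edgeR's interaction test (581 at an unadjusted p under 0.05). The log2 fold change of Rps6, a ribosomal protein gene, was larger on side A than on side B by 1.59 (adjusted p 0.00132), that of Sap18b, named for the Sin3 complex protein, by 3.33 (0.00847) and that of Trmt112, a partner of methyltransferases, by 2.63 (0.0091). All 3 were low in 1 library only. In healthy replicate 1 they were at 142.8, 6.417 and 12.83 CPM, while the other libraries had 398.7 to 607.1, 59.38 to 91.78 and 87.9 to 140.7 CPM. None of the 3 was called between the groups with the side as a block.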

How the results depend on the processing

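With the side as a block 443 genes were higher and 248 lower. These counts stayed within 1.5 times under RLE or upper-quartile scaling, without the filter, with a mean of at least 10 counts and under a GC and length offset. The offset called 391 higher and 290 lower genes, which lowers the share of higher calls from 64.1% to 57.4%, and it shared 531 of the 691 calls. The counts moved to 93 and 21 with no term for the side, 272 and 98 in DESeq2, 204 and 61 for the fold change of side A, 184 and 88 for that of side B, and 104 and 30 with all 11 NK libraries and the group only. With the replicate block in place of the side 130 genes were higher and 37 lower, of which 160 were among the 691; the numbers do not pair the samples. Leaving out each library gave 193 to 443 higher and 87 to 260 lower genes with the side, the lowest without healthy replicate 1. Without the side, an alternative chosen after seeing the data, leaving out tumour-bearing replicates 1 to 4 in turn gave 51, 68, 53 and 48 higher and 9, 8, 11 and 7 lower genes, and healthy replicates 1 to 3 gave 73, 14 and 37 higher and 20, 4 and 6 lower. The cause of these shifts was not tested. Fits with a library left out also hold fewer libraries.

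Of the 34 genes named by fold or level none changed sign in any fit, which the rule for naming them favours. Among list members Wars turned to −0.012 on side A. Without healthy replicate 1 and with no side term, Itga2 turned to 0.097, Eomes to 0.022, Il7r to 0.24, Il18r1 to 0.235 and Ifi203 to 0.149. Depth limits genes under about 5 CPM in healthy replicate 1.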

Other observations

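A few other genes outside the lists, chosen after their values were seen, were called with and without the side as a block. Jaml, an adhesion molecule of leukocytes, was at 34.2, 18.6, 26.8 and 46.6 CPM in the tumour-bearing libraries and 3.21, 6.11 and 10.3 CPM in the healthy ones, and Abcb9, a lysosomal peptide transporter related to TAP, at 23.9, 23.9, 25.1 and 45.9 CPM in the tumour-bearing libraries and 6.42, 6.11 and 11.2 CPM in the healthy ones. H2-Q8, a nonclassical MHC class I gene with close paralogs that could share reads, was at 15.9, 10.5, 20.9 and 21.1 CPM in the tumour-bearing libraries and 3.21, 3.33 and 6.002 CPM in the healthy ones. In the other direction Tbxa2r, the thromboxane receptor gene, was at 3.18, 6.403, 4.28 and 6.77 CPM in the tumour-bearing libraries and 19.2, 13.9 and 18.01 CPM in the healthy ones. In all 4 the groups did not overlap.

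Levels of a pair of list members jumped between libraries of the same group, for Gapdh on side B and for Rps2 on either side. Gapdh was at 8.75, 9.31, 527 and 8.28 CPM in the tumour-bearing libraries and 1.604, 452 and 6.86 CPM in the healthy ones, and Rps2 at 484, 22.7, 24.6 and 10.5 CPM in the tumour-bearing libraries and 4.81, 9.44 and 884 CPM in the healthy ones. Neither was called.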
